A study of Mus musculus with 6 samples.

Results

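The genes described here are the 10 genes that encode Polycomb repressive complex 2 (PRC2) and its main accessory subunits in the mouse, namely Ezh1, Ezh2, Eed, Suz12, Jarid2, Mtf2, Phf1, Phf19, Rbbp4 and Rbbp7. They were chosen by name and not by a rule on measured values, though earlier results of these data were known. They are 10 of the 35591 rows of the expression table. All 10 passed the filter on low values, as did 14123 genes in all. RNA had been sequenced from the tailbud, the caudal tissue that contains the presomitic mesoderm (PSM), of FVB/NJ embryos at embryonic day 8.5 with 8 somites. Of the 6 embryos, 3 were WT (Smchd1 +/+) and 3 were homozygous for MommeD43, a point mutation of Smchd1 studied for a possible gain of function, which encodes a chromatin protein with roles in X inactivation and Hox gene silencing. Each group held 1 male (replicate 1) and 2 females (replicates 2 and 3), and per the labels both males had the same mother. The design asks whether gene expression in the tailbud differs between these genotypes at a matched stage.

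PRC2 places methyl groups on lysine 27 of histone H3 (H3K27), up to the trimethyl state that marks silent developmental genes. Its core consists of a catalytic subunit, either Ezh2 or Ezh1, with Eed, Suz12 and a histone-binding subunit, either Rbbp4 or Rbbp7. Accessory subunits define alternative forms, with Mtf2, Phf1 or Phf19 in PRC2.1 and Jarid2 with Aebp2 in PRC2.2. In the embryo the complex keeps Hox genes and many lineage regulators silent outside the domains where they are due.

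The 10 genes lie on 9 chromosomes, and Ezh1 and Suz12 are both on chromosome 11. In the coordinates of the table (GRCm38), Ezh2 occupies chr6:47530139-47595341 on the minus strand and Ezh1 chr11:101191115-101226463 on the minus strand. Eed lies at chr7:89954654-89980983 (minus), Suz12 at chr11:79993106-80034123 (plus), Rbbp4 at chr4:129307100-129335370 (minus) and Rbbp7, the X-linked member, at chrX:162760402-162779092 (plus). Among the accessory subunits, Jarid2 lies at chr13:44729474-44921643 (plus), Mtf2 at chr5:108065674-108109004 (plus), Phf1 at chr17:26933052-26937908 (plus) and Phf19 at chr2:34893757-34914026 (minus). Their merged exons span between 2909 bases (Rbbp7) and 9715 bases (Jarid2). No 75-base stretch of transcript was shared between Ezh1 and Ezh2, between Rbbp4 and Rbbp7, or between any pair of Mtf2, Phf1 and Phf19, so reads of that length are not split between these paralogues. Phf1 was the member whose exons overlapped most with a gene on the opposite strand. Of its exon length, 39.3% is also exonic there, mainly in Cuta, and the figure was 18% for Rbbp4 and at most 6.93% for the others.

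Promoters were taken from RefSeq (GRCm38.p6) as windows of 300 bases, 250 before the annotated start and 50 after it, and all 10 members matched at least 1 of 12 windows. The letters of the E2F site, TTTCCCGC, TTTGGCGC, TTTCGCGC and TTTGCCGC, were searched on both strands because E2F factors are known regulators of Ezh2 and other genes of dividing cells. A match stood in 3 of the 12 member windows, those of Ezh2, Suz12 and Phf19, and in 2.26% of the 32851 windows of all genes. Those 3 promoters are given here because they are the member windows that hold a match. They belong to a core catalytic subunit, a core scaffold subunit and the member with the lowest level. Each runs from 250 bases before the start to 15 bases from the start onward, 5′ to 3′ along the gene, and capitals mark the matched letters.
Ezh2, chr6:47595016-47595280, minus strand: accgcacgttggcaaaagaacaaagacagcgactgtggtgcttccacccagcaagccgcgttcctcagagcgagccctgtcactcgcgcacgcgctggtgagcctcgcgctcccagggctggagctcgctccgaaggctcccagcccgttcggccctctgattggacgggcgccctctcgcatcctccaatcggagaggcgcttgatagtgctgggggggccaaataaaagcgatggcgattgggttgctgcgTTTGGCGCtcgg
Suz12, chr11:79992856-79993120, plus strand: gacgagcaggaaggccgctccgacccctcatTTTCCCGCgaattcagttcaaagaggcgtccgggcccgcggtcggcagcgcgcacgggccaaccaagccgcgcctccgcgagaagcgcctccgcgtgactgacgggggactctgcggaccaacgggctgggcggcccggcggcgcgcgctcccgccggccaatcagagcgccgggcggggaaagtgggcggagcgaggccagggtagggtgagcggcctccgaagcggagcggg
Phf19, chr2:34913962-34914226, minus strand: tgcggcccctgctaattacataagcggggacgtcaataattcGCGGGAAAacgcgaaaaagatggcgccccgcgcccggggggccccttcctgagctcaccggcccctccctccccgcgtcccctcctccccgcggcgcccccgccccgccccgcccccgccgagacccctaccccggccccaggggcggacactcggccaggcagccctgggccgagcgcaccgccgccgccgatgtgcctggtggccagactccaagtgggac
The match in Ezh2 began 3 bases after the start base, whereas those in Suz12 and Phf19 began 219 and 208 bases before it. CpG dinucleotides were frequent in the member windows, with a median of 27 against 7 over all windows and a range from 2 to 41. All the letters searched contain a CpG. The shares of windows with a match were not compared at like CpG content, so they show no enrichment in the members. These matches are descriptions of letters, and no binding was measured here.

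The libraries held between 10957916 and 47298348 reads, a 4.32-fold range. The tailbud markers were present in every library, with summed levels of 10 genes from 612.9 to 844.2 RPKM (reads scaled to exon length and library size), T and Tbx6, regulators of caudal mesoderm, among them. In the labels, the source field speaks of neural stem cells, but titles and tissue name the tailbud and were followed. Of 6 neural stem cell markers, Nes was at 10.4 to 12.1 RPKM and Fabp7 at 0.778 to 3.76 RPKM, while Sox1 and Pax6 were under 0.34 RPKM and Olig2 and Gfap at or near 0 in every library. WT replicate 1 stood apart from some of the other libraries. The mean chi-square per gene between pairs of libraries was 8.91 to 26.3 for pairs with it and 4.71 to 10.6 for pairs without it. Its values with MommeD43 replicates 1 and 3, 8.91 and 9.61, lay within the range of the pairs without it. This chi-square grows with reads, and at 36617081 reads WT replicate 1 was deeper than all libraries but MommeD43 replicate 2. Its quality weight was the lowest, 0.437 against 0.729 to 1.74. Tissue carried along with the tailbud differed between libraries. The 8 markers of visceral endoderm and yolk sac summed to 136.3, 246.3 and 277.0 RPKM in WT and to 430.6, 50.6 and 37.2 RPKM in MommeD43, and the 8 markers of primitive blood to 8.92, 485.8 and 205.2 RPKM in WT and to 25.5, 220.0 and 22.8 RPKM in MommeD43. Their part in the results was not tested, and in tissue RNA fewer cells of a type cannot be told apart from less RNA per cell. The level of Smchd1 itself averaged 8.07 ± 0.672 RPKM over the WT and 7.58 ± 0.3997 RPKM over the MommeD43 libraries (SD, n = 3 each). A point mutation need not change the amount of RNA, so this level is no check of the genotype labels.

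In the tailbud, 7 of the 10 members were above the median level of the genes tested, 5.294 RPKM, and Ezh1, Phf1 and Phf19 were below it. The order of their mean levels, per exon length, was Rbbp7, Rbbp4, Ezh2, Suz12, Eed, Mtf2, Jarid2, Ezh1, Phf1 and Phf19. This order was the same in 6 of 6 libraries for each of the 9 neighbouring pairs, including the closest ones. Ezh2 exceeded Suz12 by 1.14-fold and Eed exceeded Mtf2 by 1.15-fold, averaged over libraries, while Jarid2 exceeded Ezh1 by 3.56-fold and Phf1 exceeded Phf19 by 3.89-fold. Each pair gave p = 0.03125 in a two-sided exact sign-flip permutation test over the 6 libraries, also after Benjamini-Hochberg adjustment over the 9 pairs, which is the smallest value this design allows. As the order was taken from the means of these same libraries, this p restates that all 6 libraries gave each pair in that order. Levels of different genes also rest on the merged exon length used, so the closest pairs are ordered for this measure only. The histone-binding subunits Rbbp7 and Rbbp4, which also serve in other chromatin complexes, stood apart at the top with means of 165 and 89.1 RPKM over the 6 libraries. Phf19 stood at the bottom with a mean of 0.4397 RPKM, at the 11.8th percentile of the genes tested.

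**Figure D1:**
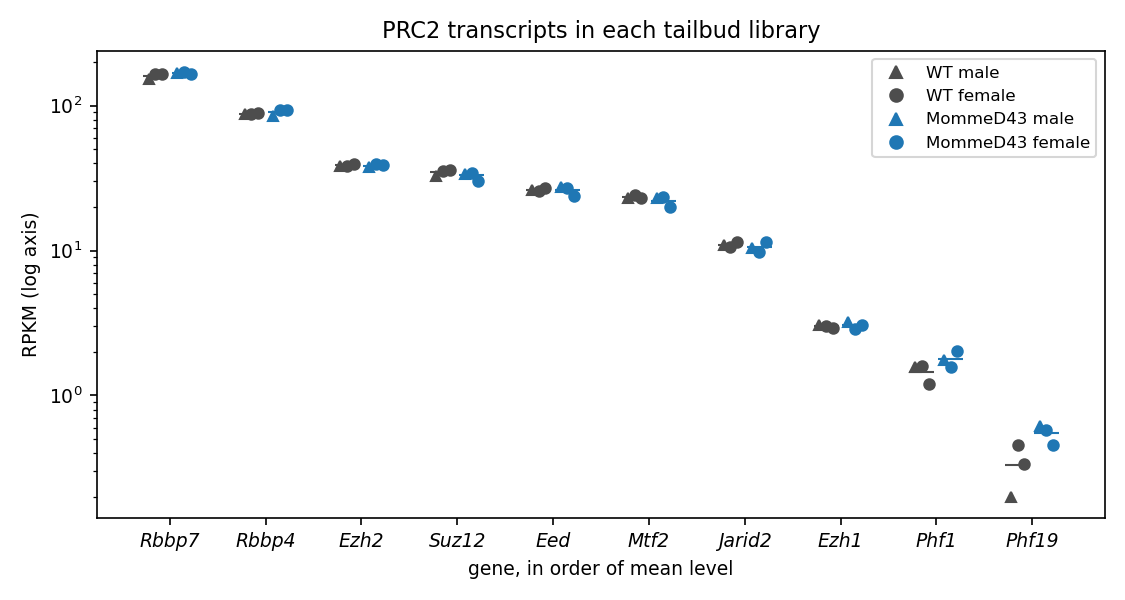
Levels of the 10 PRC2 genes in RPKM on a log axis, in order of the mean, with 1 point per library (triangles for males, circles for females, grey for WT, blue for MommeD43) and a bar at the mean of each group. The groups overlap for 9 genes, and only Phf19 has all 3 MommeD43 points above the WT points.

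No PRC2 gene passed the test between the genotypes. With limma and Benjamini-Hochberg adjustment over 14123 genes, 0 members and 0 genes in all (percent called 0) reached an adjusted p under 0.05, and the adjusted p of every member was 0.9995. Without adjustment, 341 genes (2.41%) had a p under 0.05, among them 1 member, Phf19. With voom on recovered reads, 0 genes were called and 438 had an unadjusted p under 0.05. The fold change was above 0 for 5 members and below 0 for 5, with a median log2 fold change of 0.00, as over all genes tested. The data bound most of these differences closely. For 8 of the 10 members, all but Phf1 and Phf19, the 95% interval of the fold change lay within 0.75 to 1.33. Replicates of these genes were close to each other, and 8 members had a residual SD under the median of the genes tested (median over members 0.0842, over all genes 0.142 on the log2 scale). Phf1 and Phf19, the members at the lowest levels, were above it. This spread was not compared among genes of like level, and 7 members were above the median level.

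**Figure D2:**
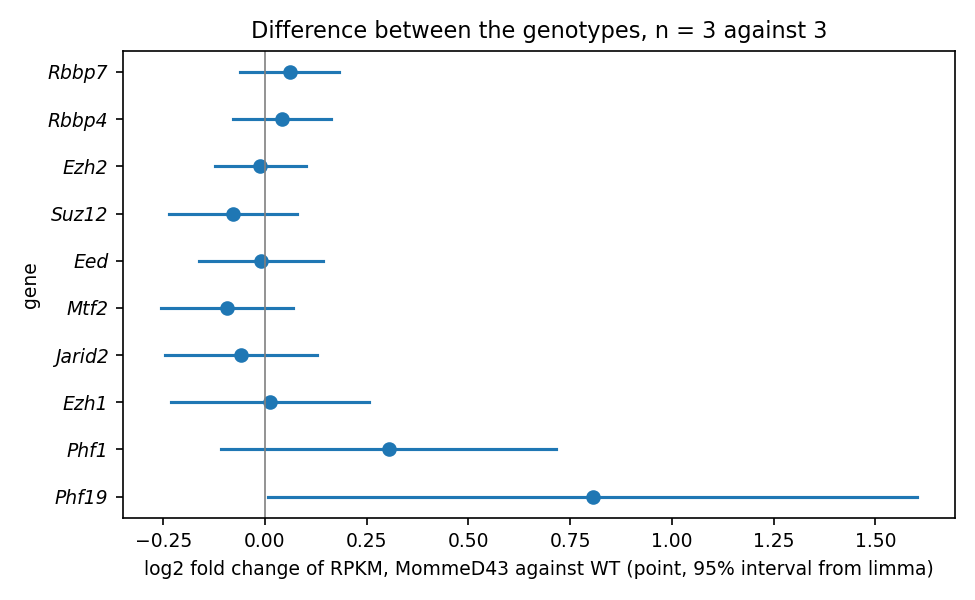
Log2 fold change of MommeD43 against WT for the 10 PRC2 genes, with the 95% interval from limma (3 libraries per group). Intervals include 0 for 9 genes and are widest for Phf1 and Phf19, the members with the fewest reads.

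Ezh2, the catalytic subunit that predominates in dividing embryonic cells, was the steadiest member. Its level was 38.5, 38.3 and 39.6 RPKM in the WT libraries and 37.5, 39.4 and 38.6 RPKM in the MommeD43 libraries. The groups overlapped, and the highest library exceeded the lowest by 1.06-fold. The log2 fold change was -0.01 (SE 0.05, 95% interval -0.12 to 0.10), and only 1.57% of the genes tested had a smaller residual SD, with no matching for level. Ezh1, the alternative catalytic subunit that is better known from non-dividing tissue, was at 3.08, 3.03 and 2.94 RPKM in WT and 3.23, 2.85 and 3.05 RPKM in MommeD43. These groups overlapped as well (log2 fold change 0.01, SE 0.11, 95% interval -0.23 to 0.26), and the spread of Ezh1 within groups was no larger than counting error, with a chi-square per degree of freedom of 1.03 on its 263 to 1004 reads. The ratio of Ezh2 to Ezh1 was 12.9 ± 0.536 in WT and 12.7 ± 1.09 in MommeD43 (SD, n = 3 each), and its log2 value differed by -0.02 (two-sided exact permutation test, p = 1, adjusted over 3 ratios 1). With 3 against 3 libraries, this exact test cannot go below p = 0.1.

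Eed, which binds trimethylated H3K27 and stimulates the enzyme, and Suz12, the scaffold of the complex, also overlapped between the groups. Eed was at 26.0, 26.0 and 26.95 RPKM in WT and 27.5, 27.1 and 24.0 RPKM in MommeD43. Suz12 was at 32.9, 35.3 and 36.2 RPKM in WT and 34.0, 34.5 and 30.4 RPKM in MommeD43. MommeD43 replicate 3 was the lowest library for both genes. The log2 fold change was -0.01 (95% interval -0.16 to 0.14) for Eed and -0.08 (95% interval -0.24 to 0.08) for Suz12.

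Rbbp4 and Rbbp7 encode closely related WD40 proteins that bind histones H3 and H4. Rbbp4 was at 87.0, 87.3 and 88.8 RPKM in WT and 85.1, 93.2 and 92.9 RPKM in MommeD43, a log2 fold change of 0.04 (95% interval -0.08 to 0.16). Rbbp7 was at 152, 166 and 166 RPKM in WT and 168, 171 and 166 RPKM in MommeD43, a log2 fold change of 0.06 (95% interval -0.06 to 0.18). The groups overlapped by the narrowest margin, with MommeD43 replicate 3 at 165.942 RPKM and WT replicates 2 and 3 at 165.943 and 165.993 RPKM, and WT replicate 1 was the lowest library. Without WT replicate 1 the log2 fold change of Rbbp7 was 0.02. The ratio of Rbbp4 to Rbbp7 was 0.545 ± 0.0247 in WT and 0.538 ± 0.0270 in MommeD43, a log2 difference of -0.02 (exact permutation p = 0.8, adjusted 1, n = 3 each).

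The accessory subunits of PRC2.1 are 3 paralogues with Tudor and PHD domains that help to bring the complex to chromatin, and their levels were far apart. Mtf2 was at 23.1, 24.3 and 23.2 RPKM in WT and 22.9, 23.4 and 20.1 RPKM in MommeD43. Its groups overlapped (log2 fold change -0.09, 95% interval -0.26 to 0.07), again with MommeD43 replicate 3 lowest. Phf1 was at 1.57, 1.60 and 1.19 RPKM in WT and 1.75, 1.58 and 2.04 RPKM in MommeD43. The groups overlapped through MommeD43 replicate 2 (log2 fold change 0.30, SE 0.18, 95% interval -0.11 to 0.72), and a rise of 1.64-fold lies within the interval. Cuta, which shares exonic bases with Phf1 on the other strand, averaged 11.8 ± 1.19 RPKM over the WT and 12.7 ± 0.643 RPKM over the MommeD43 libraries (log2 fold change 0.11, 95% interval -0.09 to 0.32). The library kit keeps strand, but the strand setting used in counting is not given in the sources used here, and whether reads of Cuta were counted for Phf1 was not tested.

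Phf19 was the only member whose groups did not overlap, a count that rests on near ties in Phf19 and Rbbp7. It was at 0.201, 0.454 and 0.334 RPKM in WT, on 37, 54 and 28 reads, and at 0.616, 0.579 and 0.455 RPKM in MommeD43, on 34, 138 and 30 reads. All MommeD43 libraries were above all WT libraries, but WT replicate 2 and MommeD43 replicate 3 were almost equal and their 95% counting intervals overlapped, from 0.341 to 0.592 and from 0.307 to 0.649 RPKM (exact intervals that cover counting error only). Groups did not overlap for 998 of the genes tested (7.07%), of which 498 (3.53%) had every MommeD43 library above every WT library and 500 (3.54%) every one below. The log2 fold change of Phf19 was 0.80 (SE 0.35, 95% interval 0.01 to 1.60), or 1.75-fold, with an adjusted p of 0.9995 from limma, so it was not called. WT replicate 1, the library with the lowest quality weight, held the lowest level. Without it the log2 fold change was 0.49, with sample quality weights it was 0.61, among the females alone it was 0.40, and on the log2(RPKM + 1) scale, which damps low values, it was 0.22. Over 18 alternative fits the adjusted p ranged from 0.7002 to 0.99996, and the unadjusted p was under 0.05 in 9 of them.

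**Figure D3:**
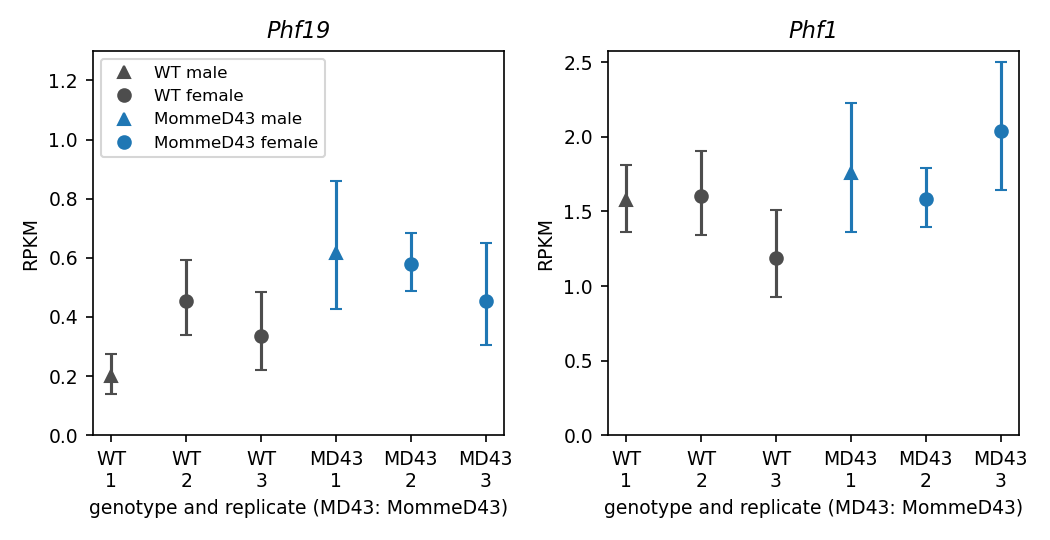
Levels of Phf19 (left) and Phf1 (right) in RPKM for each library, with 95% exact counting intervals as error bars (triangles for males, circles for females, grey for WT, blue for MommeD43). For Phf19 the WT male is lowest at 0.201 RPKM and the MommeD43 points lie between 0.455 and 0.616 RPKM, and for Phf1 the groups overlap.

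In PRC2.2, Jarid2, a catalytically inactive relative of the Jumonji demethylases that helps recruit the complex, was at 11.0, 10.6 and 11.4 RPKM in WT and 10.5, 9.73 and 11.5 RPKM in MommeD43. MommeD43 held both the lowest and the highest library, and the log2 fold change was -0.06 (95% interval -0.24 to 0.13). Aebp2, its zinc-finger partner, is not one of the 10 genes and was at 7.11, 7.38 and 7.77 RPKM in WT and 7.29, 7.59 and 6.38 RPKM in MommeD43 (log2 fold change -0.07). The summed level of Mtf2, Phf1 and Phf19 divided by that of Jarid2 and Aebp2, a ratio of PRC2.1 to PRC2.2 transcripts, was 1.38 ± 0.0895 in WT and 1.39 ± 0.112 in MommeD43 (log2 difference 0.01, exact permutation p = 0.9, adjusted 1, n = 3 each). None of the 3 ratios thus differed by more than the spread between replicates. The PRC2.1 sum mainly followed Mtf2, which averaged 22.8 RPKM over all libraries against 1.62 for Phf1 and 0.44 for Phf19. It can therefore show little of a shift in Phf1 or Phf19. Epop, at 25.4 to 35.8 RPKM, and Lcor were not in the sum, so this ratio does not measure the balance of the complete PRC2 forms.

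**Figure D4:**
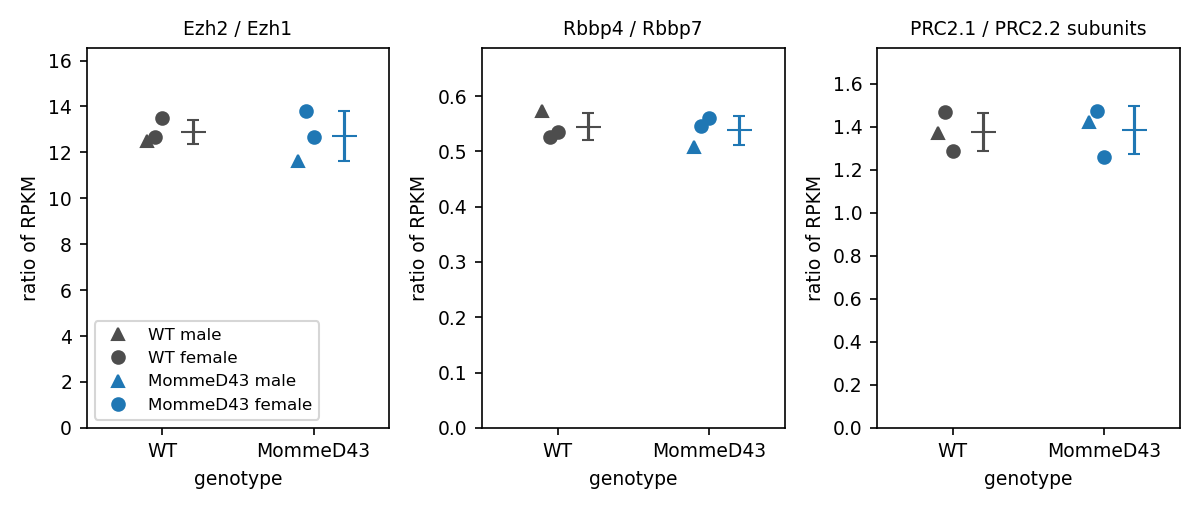
Ratios of RPKM within each library for Ezh2 to Ezh1, Rbbp4 to Rbbp7, and PRC2.1 to PRC2.2 subunits, with 1 point per library (triangles for males, circles for females) and the mean ± SD of each genotype beside the points. The genotypes overlap in each panel, with mean ratios of 12.9 and 12.7, 0.545 and 0.538, and 1.38 and 1.39.

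Over the 6 libraries the members did not vary as one group. Of the 45 pairs of members, 3 had a Pearson correlation of log2 RPKM above 0.8 and 2 had one below -0.8, with a median of -0.03. These are descriptions over 6 libraries that differ in depth and in the tissue carried along. Suz12 correlated with Mtf2 (r = 0.88) and with Eed (r = 0.80). MommeD43 replicate 3 was the lowest library for all 3 genes and lay 0.16, 0.18 and 0.13 below the mean over libraries for Suz12, Mtf2 and Eed on the log2 scale. Phf19 and Rbbp7 correlated at r = 0.92 and had their lowest value in the same library, WT replicate 1. Ezh1 and Ezh2 ran opposite to each other (r = -0.92), although both varied little, by 1.13-fold and 1.06-fold from the lowest to the highest library. The residual SD was smallest for Ezh2, Rbbp4 and Rbbp7 (0.0315, 0.0536 and 0.0542 on the log2 scale) and largest for Phf19 and Phf1 (0.451 and 0.214). Set against counting error alone, the spread within groups had a chi-square per degree of freedom of 2.31 for Phf1 and 4.27 for Phf19, with a median of 4.21 over all genes tested, a measure that grows with the number of reads. Among 11074 genes with a mean of 1 RPKM or more, those closest to Ezh2 were Smap2, Grhpr, Nsdhl, Gm49284 and Wdr59 (r from 0.96 to 0.98), and those closest to Ezh1 included Utp20, Sord, Taf15 and Abhd2 (r from 0.96 to 0.98). These are the highest of 11074 correlations over only 6 libraries, so such values can arise without a link between the genes. For Ezh2 and Ezh1, 9 and 13 of the 11074 genes exceeded r = 0.95.

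**Figure D5:**
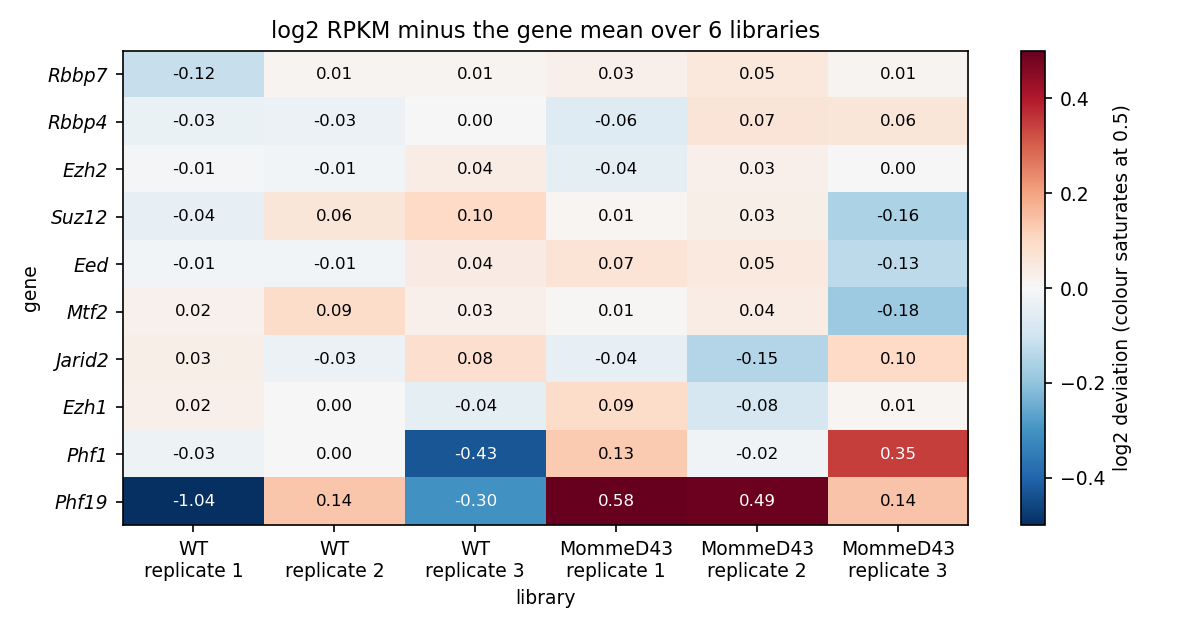
Log2 RPKM of each PRC2 gene in each library minus the mean of the gene over the 6 libraries, in colour and as printed values (colours saturate at 0.5). MommeD43 replicate 3 is lowest for Suz12, Eed and Mtf2, and the widest range is that of Phf19, from -1.04 in WT replicate 1 to 0.58 in MommeD43 replicate 1.

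No member was called between the sexes. In a fit with genotype and sex, limma called 1 gene between males and females (0.00708% of the genes tested) and 0 members. The X-linked Rbbp7 averaged 160 RPKM in the 2 males and 167 RPKM in the 4 females, a log2 difference of -0.07 (95% interval -0.19 to 0.06, adjusted p = 0.744), and that of Phf19 was -0.35 (95% interval -1.21 to 0.51, adjusted p = 0.804). When the effect of the genotype was tested for a difference between males and females, 35 genes were called (0.248%) and no member was. For Phf19 the log2 fold change was 1.62 between the males and 0.40 between the females, a difference of 1.22 (95% interval -0.18 to 2.62, limma adjusted p = 0.491). With 1 male per genotype, the male value has no replicate of its own, and as both males share a mother, sex and mother cannot be told apart. The adjusted p of the other members ranged from 0.615 to 0.974.

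Genes that act with or against PRC2 were likewise not called, in 0 cases in either direction for each list below. Of 7 other PRC2 subunits and inhibitors, 6 were tested and Ezhip (listed as AU022751) was too low, with a median log2 fold change of -0.05. The smallest unadjusted p among them belonged to Lcor, a PRC2.1 partner (log2 fold change -0.12, 95% interval -0.43 to 0.19), and Aebp2. The 4 enzymes that remove methylation from H3K27 or acetylate it had fold changes below 0, with a median log2 fold change of -0.09 against 0.00 over all genes. Their summed level was 37.3, 40.0 and 37.7 RPKM in WT and 34.9, 35.9 and 36.4 RPKM in MommeD43. These sums did not overlap but were not tested, and it was not counted how often like sets do so. Among the single genes tested, 7.07% had groups without overlap. The sums include Kdm6a, whose levels by sex are given below. None of the 4 enzymes had an unadjusted p under 0.05. The smallest were those of Ep300, an acetyltransferase (log2 fold change -0.13, 95% interval -0.31 to 0.06), and Kdm6b, a demethylase (-0.09, 95% interval -0.24 to 0.07). Kdm6a, the X-linked H3K27 demethylase known to escape X inactivation, was at 6.54 and 6.42 RPKM in the males and between 9.34 and 10.3 RPKM in the females, with a log2 difference of -0.60 (95% interval -0.76 to -0.43, limma adjusted p = 0.305). This gene was named after its values were seen.

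Among the readers of the mark, 5 of 5 chromobox genes of Polycomb repressive complex 1 were tested, with a median log2 fold change of 0.03. The smallest unadjusted p belonged to Cbx6 (log2 fold change -0.16, 95% interval -0.42 to 0.10) and Cbx8 (0.24, 95% interval -0.26 to 0.73). Of 20 textbook Polycomb targets outside the Hox clusters, 11 passed the filter, 3 with a fold change above 0 and 8 below, with a median log2 fold change of -0.16. Cdkn2a, a cell cycle inhibitor, was at 0.885, 1.19 and 1.39 RPKM in WT and 0.545, 0.595 and 1.37 RPKM in MommeD43 (log2 fold change -0.57, 95% interval -1.41 to 0.27). Gata4, a regulator of endoderm and heart that visceral endoderm also expresses, had a log2 fold change of -0.29 (95% interval -0.86 to 0.28), and Wnt1 had no read in any library. The 9 targets that did not pass the filter were at 0.274 RPKM or lower in every library.

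Rbbp4 and Rbbp7 also belong to the NuRD, Sin3 and CAF-1 complexes, and 15 of 15 genes of those complexes were tested, with a median log2 fold change of 0.02. Chaf1b, a chromatin assembly factor, was at 20.1, 18.8 and 19.9 RPKM in WT and 20.5, 21.1 and 22.4 RPKM in MommeD43 (log2 fold change 0.12, 95% interval -0.01 to 0.26), and Gatad2b of NuRD had a log2 fold change of -0.12 (95% interval -0.30 to 0.06). As PRC2 genes are known to follow proliferation, 12 cell cycle genes were described beside them. Their median log2 fold change was 0.00 and their summed level lay between 974.9 and 1018 RPKM in all libraries. The smallest unadjusted p among them belonged to Ccnb1, a mitotic cyclin (log2 fold change -0.11, 95% interval -0.22 to 0.01), and Mki67 (-0.10, 95% interval -0.28 to 0.08). Of the 10 tailbud markers, Hes7, an oscillating gene of the segmentation clock, was the one with an unadjusted p under 0.05 (log2 fold change 0.47, 95% interval 0.01 to 0.92), and the median over the list was 0.01. The blood and the visceral endoderm markers had fold changes below 0 for 8 of 8 genes each, with medians of -1.02 and -1.11, and the 5 endothelial markers a median of 0.39. None of these genes was called. Markers of the same tissue are not independent of each other, so 8 of 8 is not 8 separate observations. The summed visceral endoderm markers were highest in MommeD43 replicate 1, at 430.6 RPKM, and lowest in MommeD43 replicate 3, at 37.2 RPKM.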

How the data were processed

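RNA-seq was available for 6 tailbud libraries, 3 WT and 3 MommeD43, grouped by the labels. Per the study's methods and the labels, the authors trimmed reads (Trim Galore 0.4.4, Cutadapt), mapped them with HISAT2 2.0.5 to GRCm38 and quantified genes in SeqMonk. The deposited values are log2 RPKM. The authors' group means were not used, and 0 columns were left unassigned.

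Of 35591 rows, 35555 matched GENCODE M21, and 49 repeated identifiers were dropped. Whole reads were recovered with exon length, genes without a read sitting at the value of 0.9 read. Of 49787 values between that level and 200 reads, 98.7% were whole within 0.02. Genes were kept where 3 libraries or more reached, after depth scaling, the equivalent of 10 reads at the median library total, with 15 reads in all. The log2 RPKM values, with no pseudocount, were tested with limma 3.58.1 (R 4.3.3, mean-variance trend, two-sided, Benjamini-Hochberg, threshold 0.05, chromosomes 1 to 19 and X), as the sources used here give no test of mean levels across genes for these libraries. Ratios and orders were tested by exact permutation with scipy 1.17.1 under Python 3.11.15 (numpy 2.4.6; tables with pandas 2.3.3, plots with matplotlib 3.10.9). Replicates are separate embryos.

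The members and lists were chosen with earlier results of these data known. Genes named were the 10 members, Aebp2, Smchd1, the 5 genes most correlated with Ezh2 and with Ezh1 (1 of them is not reported here), and from each list those with an unadjusted p under 0.05 or else the 2 smallest p; Cuta, Kdm6a and the genes of the tissue check were added after their values were seen. On simulated data with 200 of 14123 genes changed 2-fold, limma recovered 99% with 10 false calls, and made 2 calls when none was changed. The changed genes were drawn from those with more reads, and all genes were given the same spread. The share recovered is therefore not that of genes with a wider spread, such as Phf19. Alternatives were other scalings, pseudocounts, filters, variance models, covariates and sample sets.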

Additional observations from a re-analysis of the deposited data

How the results depend on the processing

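No member was called under any of 19 alternatives. The order of levels held in 7 of 7 subsets of the libraries, as it must when each library has it. The number of genes called was 0 in all other fits but 11 among the females alone, all lower in MommeD43, with 1242 at an unadjusted p under 0.05. Uncalled values near 0 changed sign among the females alone for the log2 ratios of Ezh2 to Ezh1 (0.0170), Rbbp4 to Rbbp7 (0.0588) and PRC2.1 to PRC2.2 (-0.0145) and for the log2 fold changes of Ezh1 (-0.0151) and Ezh2 (0.00190). The cause was not tested. With voom, Ezh1 was at -0.0282 and Eed at 0.000716, and with sample quality weights Eed was at 0.00184. With each library left out in turn, the ranges were -0.0859 to 0.0379, -0.0486 to 0.0220 and -0.0392 to 0.0744 for these 3 ratios, and for the log2 fold changes -0.0302 to 0.0584 (Ezh1), -0.0275 to 0.00777 (Ezh2), -0.0456 to 0.0531 (Eed), -0.122 to 0.000824 (Jarid2), -0.12 to -0.02 (Suz12), -0.13 to -0.02 (Mtf2), 0.02 to 0.08 (Rbbp4), 0.02 to 0.08 (Rbbp7), 0.17 to 0.39 (Phf1) and 0.49 to 1.07 (Phf19, without WT replicates 1 and 2). The study matched embryos by somite number, which was 8 for all 6, and only the replicates 1 share a mother. Same-numbered deviations correlated at r = 0.02, 0.18 and -0.15, a check that cannot exclude pairing with so few libraries per group. The study speaks of pairs of replicates, but as the somite number was the same for all 6, the replicate numbers were not taken to pair the samples in the main fit. With the replicate block, 0 genes were called, 319 had an unadjusted p under 0.05, and Phf19 had a log2 fold change of 0.80 (limma adjusted p = 0.9995). A minimum mean of 1 RPKM leaves out Phf19, and autosomal genes alone leave out Rbbp7. Phf19 and Phf1 had the fewest reads, 28 to 138 and 67 to 261.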
